A study of Homo sapiens with 18 samples.

Results

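The integrated stress response genes of ATF4, a transcription factor that cells make when eIF2 is phosphorylated, were described by name. They were looked up among the 28277 genes of a count table. The list held 32 genes, chosen as known members or targets of the response with earlier results of these data known. Of these, 31 were among the 14938 genes that passed the filter on low counts, and PYCR1, an enzyme of proline synthesis, did not pass, with 6 counts over all 18 libraries and at most 3 in any library. The study measured RNA in human ovarian cancer cells labelled OVCAR3-KRAB with lowered XIST, the long non-coding RNA of X-chromosome silencing, in normoxia and hypoxia. All libraries, the controls included, came from clonal cells expressing the CRISPR interference repressor dCas9-KRAB and carrying 1 of 3 guides: sgCtl (sgControl in the labels), sgXIST7 or sgXIST9. Each guide had 3 replicate libraries in normoxia and 3 in hypoxia, which was 24 h in a chamber at 1% O2. The cells were cultured alike, in DMEM with serum, and total RNA was sequenced. The clones were grown by limiting dilution, and the labels do not say how many clones stand behind a guide's libraries, so guide and clone cannot be told apart. Below, a clone means the libraries of 1 guide, whether or not they came from a single clone.

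In the integrated stress response, kinases that sense unfolded protein, amino acid shortage, haem shortage or double-stranded RNA phosphorylate the initiation factor eIF2. Most translation falls, while the ATF4 mRNA is translated better, so that ATF4 is set largely at a step that RNA counts do not measure. ATF4, with partners of the C/EBP family, then raises genes for amino acid synthesis and uptake, for other transcription factors such as DDIT3 (CHOP), and for feedback that restores translation. Low oxygen is a known trigger of the response in tumour cells, alongside the HIF response, and some of these genes, DDIT4 and VLDLR among them, are also known HIF targets.

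Library totals ran from 11794375 to 24906936 counts, with a median of 17629433. XIST had 1589 to 11209 counts in the sgCtl libraries, 357 to 1009 in sgXIST9 and 0 to 5 in sgXIST7, so the targeted RNA was lower in both XIST guides. Of 10 lineage and epithelial markers of OVCAR3, EPCAM (156 to 251 CPM) and KRT18 were expressed, but WT1, MUC16, KRT7, CDH1, CLDN3 and CLDN4 had 0 to 73 counts over all 18 libraries and were not tested, so the label of the line was not borne out by those 6 genes. The collagen COL3A1, from a list of 5 fibroblast markers, stood at 356 to 1060 CPM. Summed immune markers (5 genes) reached at most 0.595 CPM and summed endothelial markers (4 genes) at most 0.684 CPM. Levels below are CPM, counts scaled to one common library total, fold changes are log2 values ± SE from 1 edgeR quasi-likelihood fit of 3 libraries a group, and a gene was called, and is said to have risen or fallen, at an adjusted p under 0.01 with a log2 fold change beyond 1. The SE was derived as the absolute log2 fold change divided by the square root of the F statistic, since the fit gives none. Nothing in the labels says that replicates came from separate cultures, although the study calls them biological replicates, so p-values cover the spread between these libraries.

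The hypoxia libraries numbered 3 stood apart for these genes. In sgCtl, sgXIST7 and sgXIST9, 21, 29 and 25 of the 31 members were highest in hypoxia replicate 3 of the 3 hypoxia libraries, against 42%, 37.6% and 39.4% of all tested genes. The median member was higher in replicate 3 than in the mean of replicates 1 and 2 by 0.53, 0.65 and 0.73 on the log2 scale, while the median over all genes lay within 0.0241 of 0. In 19 of 31 members replicate 3 was highest in all 3 clones, against 18.7% of genes. Those 19 included ATF4, TRIB3, CHAC1, SESN2, DDIT4, GDF15, VLDLR and all 8 tested synthesis enzymes. In the normoxia libraries numbered 3 the same held for 4 of 31 members and 5.02% of genes. Within each clone, hypoxia replicate 3 also had the lowest total of the 3 hypoxia libraries. The part of this difference in the results was not tested, and calls that rest on these libraries are given with and without them below.

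Among promoter windows, from 250 bases before to 50 after the RefSeq start of each gene (GRCh38.p14, 300 bases), 27 of the 32 members had at least 1 window, and some genes had more than 1. NUPR1, PSPH, SHMT2, PYCR1 and SLC7A11 had none in the table used here. The composite element of C/EBP and ATF factors, TGATGNAA on either strand, was in a window of 7 of the 27 members (25.9%) and of 4.46% of all 27305 genes with a window. These members were ATF3, CEBPG, CHAC1, ASNS, SLC3A2, SLC7A1 and SLC1A5. The core of the hypoxia response element, ACGTG, was in a window of 6 of the 27 (22.2%), ATF4, DDIT4, MTHFD2, ALDH18A1, SLC7A5 and SLC1A5, and of 24.9% of all genes. The cyclic AMP response element TGACGTCA was in that of 1 member, PPP1R15A (3.7%), and of 2.25% of all genes. No match overlapped a match of another motif. A match describes letters in the window and is not a measured binding site. Of the 7 members with the composite element, CEBPG, SLC3A2, SLC7A1 and SLC1A5 were called in no clone for hypoxia against normoxia. The list was chosen as known members or targets of the response, so these shares describe the list. A link between element and response was not tested. The 3 called members with the composite element before the start, ASNS, ATF3 and CHAC1, are shown 5′ to 3′ on the gene's strand, element in capitals.
ASNS chr7:97872443-97872502: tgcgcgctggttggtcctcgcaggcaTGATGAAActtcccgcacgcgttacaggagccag
ATF3 chr1:212565190-212565249: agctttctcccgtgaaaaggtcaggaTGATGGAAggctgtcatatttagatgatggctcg
CHAC1 chr15:40953236-40953295: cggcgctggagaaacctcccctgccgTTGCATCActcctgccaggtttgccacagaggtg
The element lay 68 to 61 bases before the start in ASNS (minus strand of chromosome 7), 191 to 184 bases before it in ATF3 (plus strand) and 209 to 202 bases before it in CHAC1 (plus strand), where it lies on the opposite strand and the printed strand reads TTGCATCA.

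The first comparison asked how the genes responded to hypoxia within each clone. In sgCtl, 13 of 31 tested members rose and 1 fell. Over all tested genes 11.3% rose and 8.49% fell. In sgXIST7, 17 rose and 1 fell, against 15.1% and 12.2% of all genes. In sgXIST9, 11 rose and 1 fell, against 14.7% and 8.58%. The members were chosen with earlier results of these data known, so these shares describe the list and are no test of it. The members' median log2 fold changes were 0.71, 1.06 and 0.89 in the 3 clones, and the medians of all genes were 0.0171, 0.00958 and 0.0881. The 10 members that rose in all 3 clones were the transcription regulators ATF3, DDIT3, CEBPB and NUPR1, the feedback and stress genes TRIB3, PPP1R15A, CHAC1 and DDIT4, the mitochondrial enzyme PCK2 and the receptor VLDLR. ATF5 fell in all 3. SESN2 and ALDH18A1 rose in sgCtl and sgXIST7, GDF15 in sgXIST7 and sgXIST9, SLC7A5 in sgCtl, and ATF4, ASNS, PSAT1 and STC2 in sgXIST7. The other 12 members were called in no clone. Since the RNA came from bulk cultures, fewer expressing cells and less RNA per cell cannot be told apart in any of these levels.

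**Figure D1:**
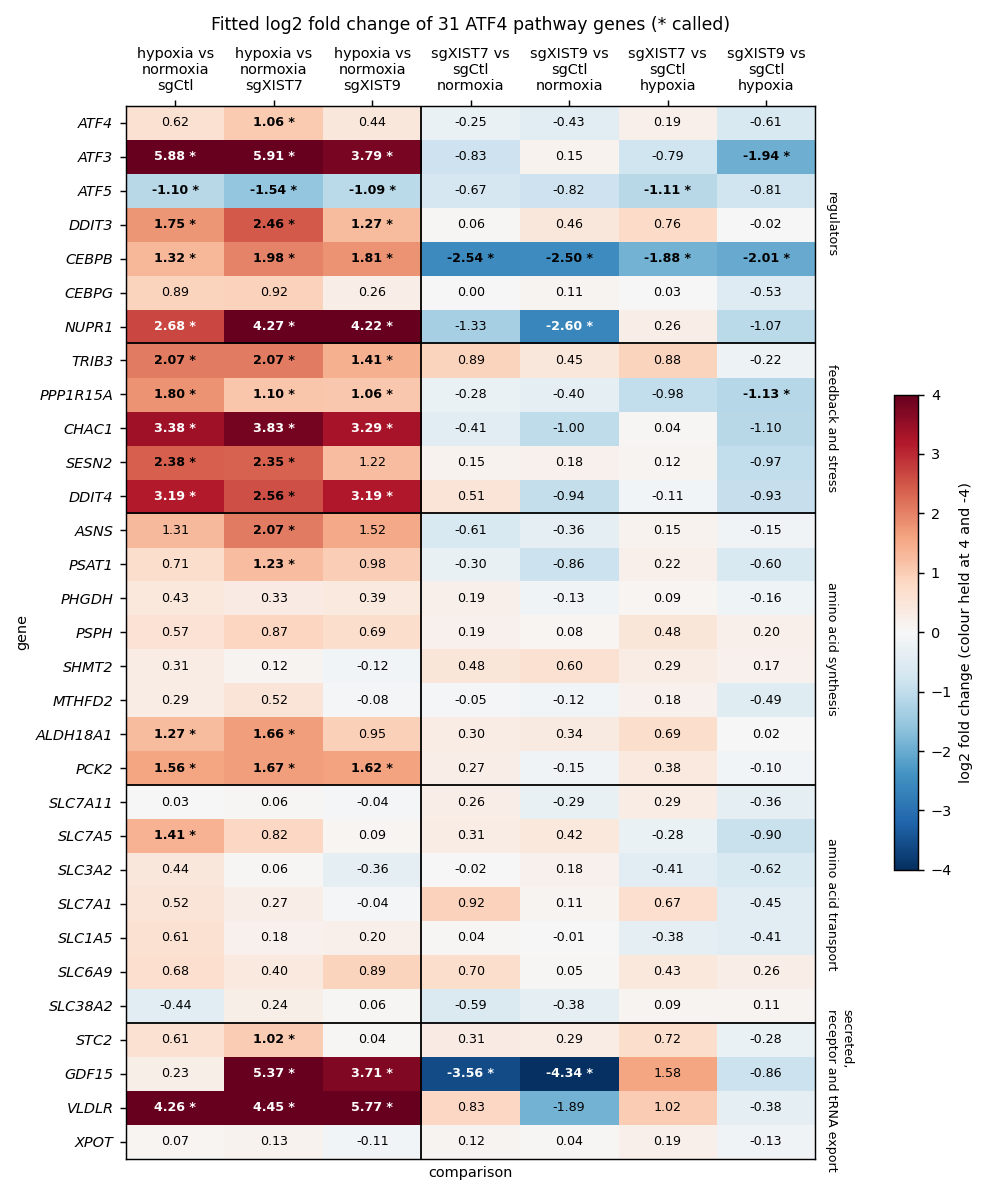
Log2 fold changes of the 31 tested members (rows, grouped by role) in 7 comparisons (columns): hypoxia against normoxia in each clone and each XIST guide against sgCtl in normoxia and in hypoxia. Colour runs from blue (lower) to red (higher) and is held at 4 and -4, and a star marks a called member, with the value in each cell. The red columns are the 3 hypoxia comparisons, with 13, 17 and 11 members called higher, and the stars of the guide comparisons are all lower.

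Among the 7 transcription regulators, 4 rose in sgCtl, 5 in sgXIST7 and 4 in sgXIST9, and ATF5 fell in each. ATF3, a stress-induced repressor and activator of the same family (chr1:212565334-212620777 on hg38), was the member with the largest rise in sgCtl and sgXIST7. In sgCtl, the ATF3 level was 0.335, 0.232 and 0.344 CPM in the normoxia libraries and 17.7, 25.3 and 12.4 CPM in the hypoxia libraries. In sgXIST7 it was 0.259, 0.111 and 0.131 CPM in normoxia and 4.40, 10.3 and 17.8 CPM in hypoxia. In sgXIST9 it was 0.357, 0.159 and 0.526 CPM in normoxia and 2.83, 4.18 and 7.64 CPM in hypoxia. All 9 normoxia libraries held 2 to 9 counts, and every hypoxia library lay above them. The log2 fold changes were 5.88 ± 0.59, adjusted p = 5.7e-07, then 5.91 ± 0.61, adjusted p = 4e-07, and 3.79 ± 0.56, adjusted p = 2.8e-05. DDIT3 (CHOP), a C/EBP-family factor tied to stress-induced death, was at 8.39, 6.96 and 8.32 CPM in sgCtl normoxia and 29.7, 26.8 and 23.4 CPM in hypoxia. The DDIT3 level was 8.13, 7.94 and 8.63 CPM in sgXIST7 normoxia against 28.3, 43.9 and 64.2 CPM in hypoxia, and 11.6, 10.8 and 10.3 CPM in sgXIST9 normoxia against 21.8, 21.5 and 36.2 CPM in hypoxia. No hypoxia library overlapped a normoxia library of its clone. On the log2 scale DDIT3 rose by 1.75 ± 0.25, adjusted p = 2.2e-05, by 2.46 ± 0.25, adjusted p = 3e-07, and by 1.27 ± 0.24, adjusted p = 0.00027. Without sgXIST9 hypoxia replicate 3 its log2 fold change in that clone was 0.99 with an adjusted p of 0.0016, which was not called.

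CEBPB, a C/EBP partner of ATF4 (chr20:50190583-50192691 on hg38), rose in each clone from different starting levels. The sgCtl libraries held 26, 33.9 and 35.1 CPM of CEBPB in normoxia and 78.6, 90.6 and 67.5 CPM in hypoxia. For sgXIST7 the CEBPB levels were 5.84, 5.16 and 5.27 CPM and 16.6, 19.8 and 28.4 CPM. For sgXIST9 the CEBPB levels were 5.22, 6.0 and 5.55 CPM and 17.3, 21.1 and 20.4 CPM. Each hypoxia group lay above its normoxia group, while no hypoxia library of sgXIST7 or sgXIST9 exceeded the highest sgCtl normoxia library. The log2 fold changes were 1.32 ± 0.17, adjusted p = 9.5e-06 in sgCtl, 1.98 ± 0.19, adjusted p = 1.4e-07 in sgXIST7 and 1.81 ± 0.19, adjusted p = 5.2e-07 in sgXIST9. Of the exon bases of CEBPB, 26.6% lie opposite CEBPB-AS1, whose own log2 fold changes in hypoxia were 1.21 ± 0.43, 2.95 ± 0.41 and 1.55 ± 0.40, the last 2 called. Whether the counting used strand is not given in the sources used here, so reads of the pair may be mixed. NUPR1, a small stress-induced chromatin protein, was at 1.88, 0.619 and 1.32 CPM in sgCtl normoxia and 11.4, 5.21 and 8.33 CPM in hypoxia. It was at 0.562, 0.278 and 0.654 CPM in sgXIST7 normoxia and 8.12, 9.02 and 12.8 CPM in hypoxia, and at 0.223, 0.106 and 0.292 CPM in sgXIST9 normoxia and 4.33, 2.45 and 5.11 CPM in hypoxia. All hypoxia libraries exceeded all normoxia libraries. The log2 rises were 2.68 ± 0.40, adjusted p = 3.7e-05, 4.27 ± 0.43, adjusted p = 3.3e-07, and 4.22 ± 0.50, adjusted p = 2.5e-06, the last from normoxia counts of 5, 2 and 5.

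The ATF4 transcript itself (chr22:39520559-39522686 on hg38) moved by less than the called regulators above. ATF4 was at 234, 178 and 208 CPM in sgCtl normoxia and at 263, 283 and 407 CPM in sgCtl hypoxia. The sgXIST7 libraries went from 192, 159 and 169 CPM in normoxia to 279, 330.0 and 477 CPM in hypoxia. The sgXIST9 libraries went from 157, 149 and 153 CPM in normoxia to 165, 154 and 306 CPM in hypoxia. In sgCtl and sgXIST7 the hypoxia libraries all lay above the normoxia libraries, and in sgXIST9 hypoxia replicate 2 lay within the normoxia range. The log2 fold change was 0.62 ± 0.24, adjusted p = 0.038 in sgCtl, 1.06 ± 0.24, adjusted p = 0.0011 in sgXIST7 and 0.44 ± 0.24, adjusted p = 0.12 in sgXIST9, so it was called in sgXIST7 only. That call was lost without sgXIST7 hypoxia replicate 3 (0.82 with an adjusted p of 0.0087) and without sgXIST7 normoxia replicate 2 (1.0 with an adjusted p of 0.0067), where it missed the fold limit. ATF5, a relative of ATF4 that is translated by the same mechanism, went the other way. Normoxia replicates 1, 2 and 3 of sgCtl had 20.7, 18.3 and 17.3 CPM of ATF5, and the hypoxia replicates 8.50, 9.28 and 8.51 CPM. Those of sgXIST7 had 14, 9.0 and 12.3 CPM in normoxia and 4.25, 2.85 and 5.27 CPM in hypoxia. Those of sgXIST9 had 10.1, 10.8 and 11 CPM in normoxia and 3.69, 4.67 and 6.75 CPM in hypoxia. Hypoxia lay below normoxia in every clone, with log2 fold changes of -1.10 ± 0.22, adjusted p = 0.00062, then -1.54 ± 0.23, adjusted p = 2.7e-05, and -1.09 ± 0.23, adjusted p = 0.00069. Without sgXIST9 hypoxia replicate 1 the sgXIST9 value was -0.90 with an adjusted p of 0.0061, short of the fold limit. CEBPG, a C/EBP partner of ATF4, was not called in any clone (log2 fold changes 0.89 ± 0.34, 0.92 ± 0.34 and 0.26 ± 0.33), and its sgXIST9 hypoxia libraries were 49.9, 42.5 and 114 CPM against 55.4, 56.4 and 60.7 CPM in normoxia.

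**Figure D2:**
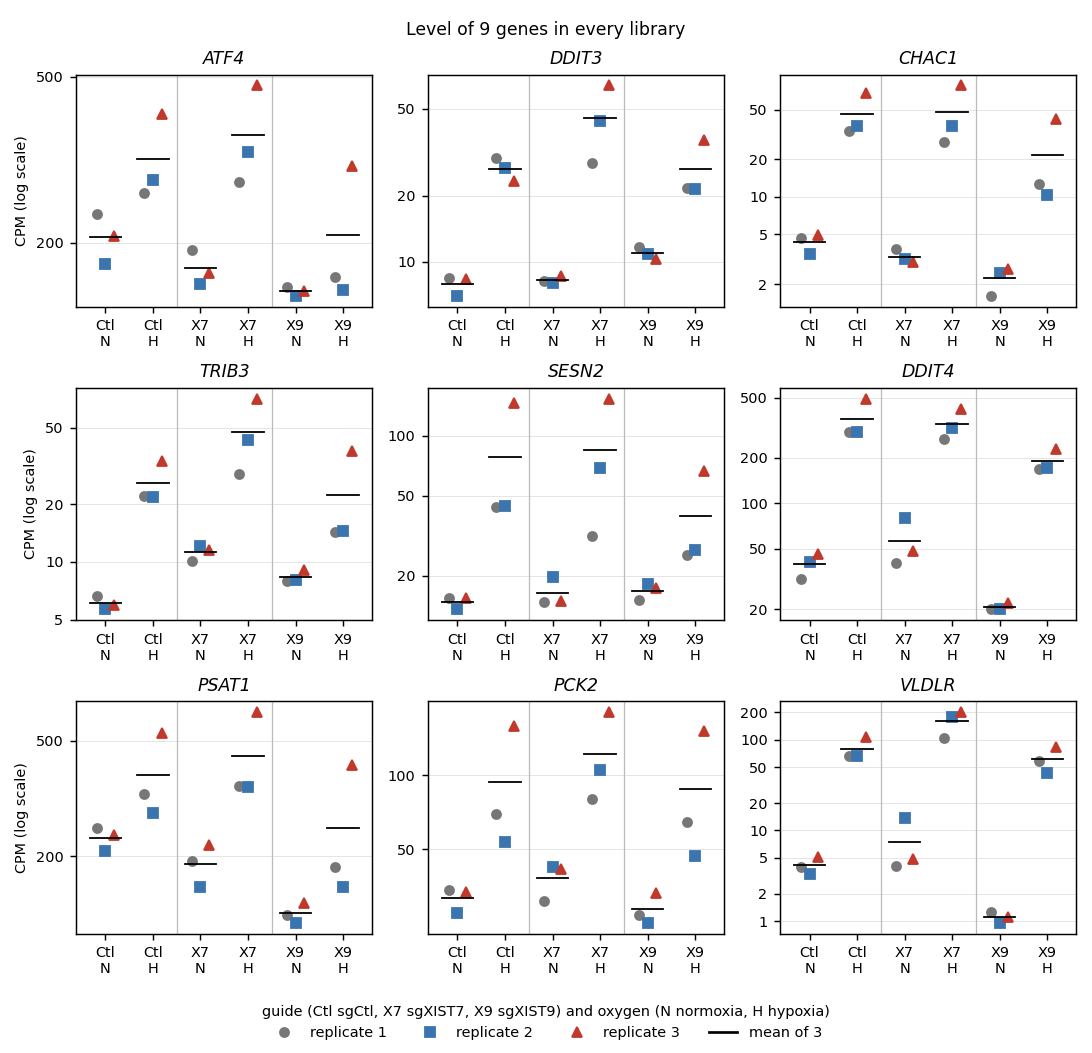
Levels (CPM, log axis) in each of the 18 libraries for ATF4 and 8 members described under hypoxia: DDIT3, CHAC1, TRIB3, SESN2, DDIT4, PSAT1, PCK2 and VLDLR. Circles, squares and triangles are replicates 1, 2 and 3 and the bar is the mean of 3. VLDLR and DDIT4 separate fully between normoxia and hypoxia in each clone, while the ATF4 libraries of sgXIST9 overlap, and the hypoxia triangle is the highest point in all 3 clones for every gene shown but DDIT3.

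The 5 feedback and stress genes made up the role group with the largest share called: all 5 rose in sgCtl and in sgXIST7, and 4 of 5 rose in sgXIST9. CHAC1, an enzyme that breaks down glutathione, rose most in log2 terms. In sgCtl, the CHAC1 level was 4.70, 3.48 and 4.99 CPM in the normoxia libraries and 34, 36.8 and 68.2 CPM in the hypoxia libraries. In sgXIST7 it was 3.80, 3.17 and 3.01 CPM in normoxia and 27.8, 37 and 78.6 CPM in hypoxia. In sgXIST9 it was 1.61, 2.44 and 2.63 CPM in normoxia and 12.6, 10.4 and 42.2 CPM in hypoxia. The groups did not overlap, and in each clone hypoxia replicate 3 was the highest. Log2 fold changes were 3.38 ± 0.51, adjusted p = 3.8e-05, 3.83 ± 0.51, adjusted p = 7.1e-06, and 3.29 ± 0.53, adjusted p = 5.9e-05. DDIT4 (REDD1), an inhibitor of mTORC1, had levels of 31.5, 40.9 and 46.4 CPM in sgCtl normoxia and 294, 297 and 492 CPM in hypoxia. In sgXIST7 the DDIT4 levels were 40.6, 80.4 and 48.5 CPM and 268, 314 and 419 CPM, and in sgXIST9 19.9, 20.1 and 22 CPM and 169.6, 171 and 227 CPM. Hypoxia and normoxia did not overlap in any clone, and the log2 fold changes were 3.19 ± 0.27, adjusted p = 8.4e-08, 2.56 ± 0.26, adjusted p = 3.2e-07, and 3.19 ± 0.27, adjusted p = 5.5e-08.

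TRIB3, a pseudokinase that dampens ATF4 and DDIT3, stood at 6.64, 5.65 and 5.97 CPM in sgCtl normoxia and 22, 21.7 and 33.7 CPM in hypoxia. In sgXIST7 normoxia it was 10.1, 12.1 and 11.6 CPM, and 28.8, 42.9 and 71 CPM in hypoxia. In sgXIST9 it was 7.90, 8.07 and 9.05 CPM and 14.4, 14.4 and 37.9 CPM, where replicate 3 stood far above replicates 1 and 2. On the log2 scale TRIB3 rose by 2.07 ± 0.36, adjusted p = 0.00016, by 2.07 ± 0.34, adjusted p = 6.9e-05, and by 1.41 ± 0.35, adjusted p = 0.0025. Its sgXIST9 call was lost without hypoxia replicate 3 (0.79 with an adjusted p of 0.023), normoxia replicate 1 (1.37 with an adjusted p of 0.012) or normoxia replicate 2 (1.38 with an adjusted p of 0.011). PPP1R15A (GADD34), the phosphatase subunit that reverses eIF2 phosphorylation, rose from 20.1, 17.1 and 20.5 CPM to 63.3, 89.3 and 47.9 CPM in sgCtl. It rose from 17.1, 15.9 and 14.7 CPM to 36.5, 32.7 and 32.9 CPM in sgXIST7, and from 14.7, 13.4 and 15.6 CPM to 30.4, 36.6 and 24.5 CPM in sgXIST9. Unlike most members, it was lowest in hypoxia replicate 3 in sgCtl and sgXIST9. The log2 fold changes were 1.80 ± 0.19, adjusted p = 8.6e-07, 1.10 ± 0.19, adjusted p = 8.1e-05, and 1.06 ± 0.19, adjusted p = 0.00013, and the last became 0.92 with an adjusted p of 0.00099 without sgXIST9 hypoxia replicate 2, short of the fold limit. SESN2, a leucine sensor that restrains mTORC1, spread widely in hypoxia: 43.9, 44.7 and 145 CPM in sgCtl hypoxia, 31.4, 69 and 153 CPM in sgXIST7 hypoxia and 25.5, 26.8 and 66.3 CPM in sgXIST9 hypoxia. Its normoxia libraries were 15.5, 13.6 and 15.5 CPM, 14.9, 19.7 and 14.9 CPM and 15.2, 18.2 and 17.3 CPM in the same order. SESN2 rose in sgCtl (2.38 ± 0.53, adjusted p = 0.0014) and sgXIST7 (2.35 ± 0.53, adjusted p = 0.0011). The sgXIST9 value was 1.22 ± 0.51, adjusted p = 0.054. Without sgCtl hypoxia replicate 3 the sgCtl value was 1.58 with an adjusted p of 0.017, no longer called.

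Of the 8 tested enzymes of amino acid synthesis and the carbon pathways that feed it, 2 rose in sgCtl, 4 in sgXIST7 and 1 in sgXIST9, and none fell in the edgeR test. In each clone the 8 fold changes ran from 0.29 to 1.56 in sgCtl, 0.12 to 2.07 in sgXIST7 and -0.12 to 1.62 in sgXIST9. No enzyme of the group had a negative fold change at an unadjusted p under 0.05, and DESeq2 called 0 lower. PCK2, mitochondrial phosphoenolpyruvate carboxykinase, was the enzyme that rose in all 3 clones. The sgCtl libraries held 34.1, 27.5 and 33.6 CPM of PCK2 in normoxia and 69.5, 53.6 and 159 CPM in hypoxia. For sgXIST7 the PCK2 levels were 30.7, 42.4 and 41.6 CPM and 80.2, 105 and 181 CPM. For sgXIST9 the PCK2 levels were 27.2, 25.1 and 33.4 CPM and 64.5, 47.1 and 152 CPM. The groups did not overlap, and replicate 3 was the highest hypoxia library in each clone. Log2 fold changes were 1.56 ± 0.42, adjusted p = 0.0052, 1.67 ± 0.42, adjusted p = 0.0025, and 1.62 ± 0.42, adjusted p = 0.0037. Every one of these calls was sensitive to single libraries. Without hypoxia replicate 3 of the same clone, PCK2 was 0.96 with an adjusted p of 0.059 in sgCtl, 1.29 with an adjusted p of 0.018 in sgXIST7 and 0.97 with an adjusted p of 0.044 in sgXIST9. It also missed the limit without any 1 sgCtl normoxia library (1.61, 1.47 and 1.60), without sgXIST7 normoxia replicate 1 (1.54) and without sgXIST9 normoxia replicate 1 or 2 (1.58 and 1.53).

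ALDH18A1, the first enzyme of proline synthesis, was at 103, 104 and 106 CPM in sgCtl normoxia and 226, 213 and 318 CPM in hypoxia, 132, 123 and 129.7 CPM and 329, 404 and 487 CPM in sgXIST7, and 136, 135 and 127 CPM and 243, 199.6 and 326 CPM in sgXIST9. All hypoxia libraries exceeded all normoxia libraries. It rose in sgCtl (1.27 ± 0.18, adjusted p = 1.6e-05) and sgXIST7 (1.66 ± 0.18, adjusted p = 5.3e-07), and in sgXIST9 it passed the adjusted p but not the fold limit (0.95 ± 0.17, adjusted p = 2e-04). PSAT1, a transaminase of serine synthesis, was at 192, 156 and 218 CPM in sgXIST7 normoxia and 350.5, 347 and 628 CPM in hypoxia, without overlap. It rose there (1.23 ± 0.32, adjusted p = 0.0031), and was not called in sgCtl (0.71 ± 0.31, adjusted p = 0.067) or sgXIST9 (0.98 ± 0.32, adjusted p = 0.015). ASNS, asparagine synthetase and the enzyme whose promoter element is printed above, was at 1.82, 1.22 and 2.09 CPM and 4.16, 4.98 and 12.9 CPM in sgXIST7. It rose in that clone (2.07 ± 0.49, adjusted p = 0.0017), and its values were 1.31 ± 0.49, adjusted p = 0.033 in sgCtl and 1.52 ± 0.49, adjusted p = 0.014 in sgXIST9. Of the ASNS exon bases 67.6% are shared on the same strand with the readthrough gene CZ1P-ASNS, so its count is uncertain. Both sgXIST7 calls were lost without hypoxia replicate 3 (PSAT1 0.90 with an adjusted p of 0.026, ASNS 1.42 with an adjusted p of 0.016) and without normoxia replicate 2 (PSAT1 1.10 with an adjusted p of 0.018, ASNS 1.88 with an adjusted p of 0.011), and that of PSAT1 also without normoxia replicate 1 (1.24 with an adjusted p of 0.012). In sgXIST9, PSAT1 was called without hypoxia replicate 1 (1.16 with an adjusted p of 0.0097) or 2 (1.23 with an adjusted p of 0.0039), and ASNS without hypoxia replicate 2 (1.78 with an adjusted p of 0.0087). The serine enzymes PHGDH and PSPH and the one-carbon enzymes SHMT2 and MTHFD2 were called in no clone. For PHGDH, the entry enzyme of serine synthesis, the values were 0.43 ± 0.28, 0.33 ± 0.28 and 0.39 ± 0.28, and for MTHFD2 they were 0.29 ± 0.29, 0.52 ± 0.29 and -0.08 ± 0.29. PSPH, the last enzyme of serine synthesis, was at 0.57 ± 0.26, 0.87 ± 0.25 and 0.69 ± 0.25, and SHMT2 at 0.31 ± 0.20, 0.12 ± 0.20 and -0.12 ± 0.20. Of the MTHFD2 exon bases, 29.1% lie opposite SLC4A5.

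The 7 amino acid transporters had the smallest share called. In sgCtl 1 of 7 rose, SLC7A5, and in sgXIST7 and sgXIST9 edgeR called 0 of 7 in either direction. At an unadjusted p under 0.05, 3 were higher and 0 lower in sgXIST7, 1 was higher and 1 lower in sgXIST9, and DESeq2 called 0 in both clones. The medians of the 7 were 0.52, 0.24 and 0.06, and the whole range over the 3 clones was -0.44 to 1.41. SLC7A5 (LAT1), the light chain of the large neutral amino acid exchanger, rose in 1 of the 3 clones. SLC7A5 was at 89, 89.5 and 87.9 CPM in sgCtl normoxia and at 243, 282 and 181 CPM in sgCtl hypoxia. The sgXIST7 libraries went from 101, 113 and 117 CPM in normoxia to 131, 152 and 301 CPM in hypoxia. The sgXIST9 libraries went from 106, 127 and 122 CPM in normoxia to 95.7, 116 and 167 CPM in hypoxia. In sgCtl each hypoxia library was above each normoxia library, with hypoxia replicate 3 the lowest, and in sgXIST9 the groups overlapped. The log2 fold changes were 1.41 ± 0.26, adjusted p = 0.00024 in sgCtl, 0.82 ± 0.25, adjusted p = 0.01 in sgXIST7 and 0.09 ± 0.25, adjusted p = 0.78 in sgXIST9. Without sgXIST7 hypoxia replicate 1 the sgXIST7 value was 1.04 with an adjusted p of 0.0018, and called. Without sgXIST9 hypoxia replicate 3 the sgXIST9 value was -0.16 with an adjusted p of 0.63. SLC3A2 (CD98), the heavy chain that pairs with SLC7A5 and SLC7A11, was at 103, 93.1 and 102 CPM in sgCtl normoxia and 137, 158 and 109 CPM in hypoxia, with each hypoxia library above each normoxia library. In sgXIST9 it was at 116, 110.2 and 112 CPM and 77.6, 94.5 and 90.5 CPM, with each hypoxia library below each normoxia library. Neither difference was called (0.44 ± 0.16, adjusted p = 0.033 and -0.36 ± 0.16, adjusted p = 0.07).

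SLC38A2 (SNAT2), a glutamine and alanine carrier, was the most abundant member per kilobase of exon in all 6 groups, at 334 CPM per kb in sgCtl normoxia. In CPM it was 1687, 1605 and 1513 in sgCtl normoxia and 1037, 1247 and 1261 in hypoxia, 1154, 988 and 1061 and 1292, 1266 and 1226 in sgXIST7, and 1226, 1234 and 1223 and 1273, 1427 and 1129 in sgXIST9. Hypoxia lay wholly below normoxia in sgCtl and wholly above it in sgXIST7. The log2 fold changes were -0.44 ± 0.10, adjusted p = 0.002, under the fold limit, then 0.24 ± 0.10, adjusted p = 0.055, and 0.06 ± 0.10, adjusted p = 0.67. The cystine antiporter SLC7A11 had overlapping groups in all 3 clones and log2 fold changes of 0.03 ± 0.24, 0.06 ± 0.24 and -0.04 ± 0.24. The values of SLC7A1, a cationic amino acid carrier, were 0.52 ± 0.24, 0.27 ± 0.24 and -0.04 ± 0.24. The glutamine carrier SLC1A5 gave 0.61 ± 0.17, 0.18 ± 0.17 and 0.20 ± 0.17, and the glycine carrier SLC6A9 gave 0.68 ± 0.16, 0.40 ± 0.15 and 0.89 ± 0.16.

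Of the 4 members outside these roles, VLDLR, a lipoprotein receptor, rose in every clone. Normoxia replicates 1, 2 and 3 of sgCtl had 3.96, 3.33 and 5.05 CPM of VLDLR, and the hypoxia replicates 65.4, 65.7 and 108 CPM. Those of sgXIST7 had 4.02, 13.7 and 4.79 CPM in normoxia and 104, 179 and 202 CPM in hypoxia. Those of sgXIST9 had 1.25, 0.956 and 1.11 CPM in normoxia and 57.8, 42.8 and 82.4 CPM in hypoxia. The hypoxia libraries were all above the normoxia libraries, and the rises of 4.26 ± 0.43, adjusted p = 6e-07, of 4.45 ± 0.41, adjusted p = 1.2e-07, and of 5.77 ± 0.48, adjusted p = 5.5e-08 were 19.1-fold, 21.9-fold and 54.5-fold. GDF15, a secreted stress cytokine (chr19:18386158-18389176 on hg38), was a low-count gene. In sgCtl, the GDF15 level was 2.42, 3.02 and 3.27 CPM in the normoxia libraries and 1.69, 2.18 and 6.65 CPM in the hypoxia libraries. In sgXIST7 it was 0.0432, 0.500 and 0.218 CPM in normoxia and 3.01, 13.9 and 13.9 CPM in hypoxia. In sgXIST9 it was 0.179, 0.106 and 0.117 CPM in normoxia and 0.820, 0.771 and 4.23 CPM in hypoxia. In sgXIST7 and sgXIST9 every hypoxia library exceeded the normoxia libraries, which held 1, 9 and 5 and 4, 2 and 2 counts, and in sgCtl the groups overlapped. GDF15 rose in sgXIST7 (5.37 ± 0.85, adjusted p = 3.9e-05) and sgXIST9 (3.71 ± 0.97, adjusted p = 0.0038), and the sgCtl value was 0.23 ± 0.67, adjusted p = 0.8. The sgXIST9 call was lost without hypoxia replicate 3 (2.49 with an adjusted p of 0.037) or without any 1 of the sgXIST9 normoxia libraries (3.99, 3.57 and 3.63), and the sgCtl value turned to -0.57 with an adjusted p of 0.52 without sgCtl hypoxia replicate 3. STC2, a secreted glycoprotein, rose in sgXIST7 (1.02 ± 0.22, adjusted p = 0.00078) and gave 0.61 ± 0.22, adjusted p = 0.03 in sgCtl and 0.04 ± 0.22, adjusted p = 0.88 in sgXIST9. Without sgXIST7 hypoxia replicate 3 it was 0.70 with an adjusted p of 0.0054, and without sgXIST7 normoxia replicate 2 it was 0.89 with an adjusted p of 0.006. XPOT, the exporter of tRNA, gave 0.07 ± 0.22, 0.13 ± 0.22 and -0.11 ± 0.22 and overlapped in each clone.

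With the 3 hypoxia libraries numbered 3 left out, an alternative added after the data were seen, 12, 14 and 7 members rose in sgCtl, sgXIST7 and sgXIST9, and 13.3%, 15.5% and 16.1% of all genes did. PCK2 was lost in sgCtl, ATF4, PSAT1 and STC2 in sgXIST7, and DDIT3, TRIB3, PCK2 and GDF15 in sgXIST9, and no member was gained. Still called were PCK2 (1.29, adjusted p = 1.6e-05) and ASNS (1.42, adjusted p = 0.00042) in sgXIST7 and SESN2 in sgCtl (1.58, adjusted p = 6e-05). Each had nearly the same fold change where only its own clone's hypoxia replicate 3 was left out and the call was lost on the adjusted p. The ATF4 values were then 0.41 ± 0.12, adjusted p = 0.0063 in sgCtl, 0.82 ± 0.11, adjusted p = 8.8e-06 in sgXIST7 and 0.07 ± 0.12, adjusted p = 0.63 in sgXIST9. The sgXIST9 median fell from 0.89 to 0.42. ATF3, CEBPB, NUPR1, CHAC1, DDIT4, PPP1R15A and VLDLR were still called in all 3 clones.

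**Figure D3:**
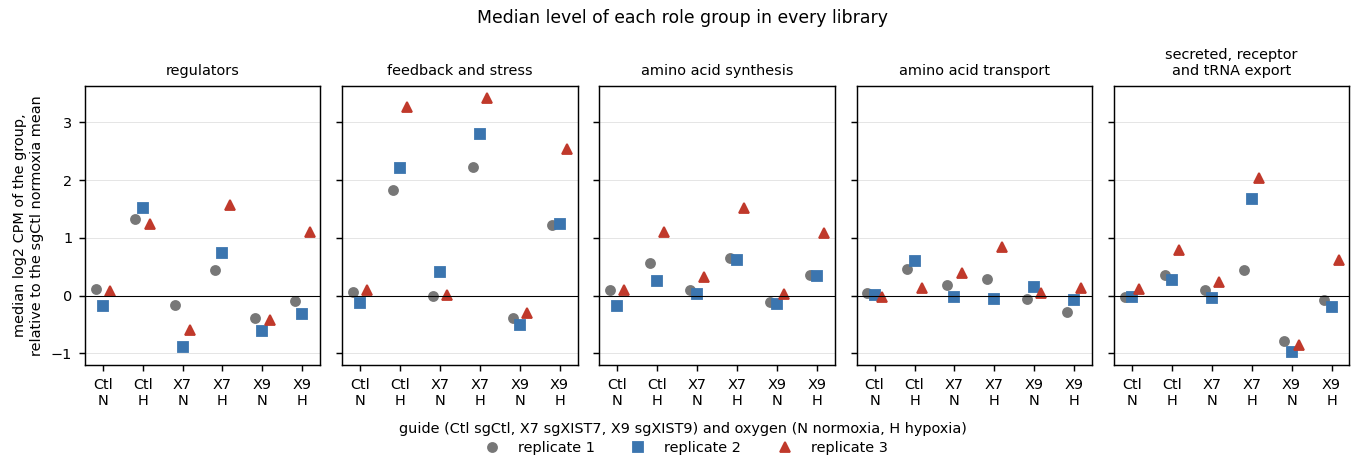
Median log2 CPM of the tested members of each role group in every library, relative to the mean of the sgCtl normoxia libraries, in 5 panels (regulators, feedback and stress, amino acid synthesis, amino acid transport, and the 4 other members). Points are libraries, with circles, squares and triangles for replicates 1, 2 and 3. The feedback and stress panel shows the hypoxia libraries above the normoxia libraries in each clone, the transport panel shows overlapping hypoxia and normoxia libraries in sgXIST7 and sgXIST9, and the hypoxia triangle is the top point of the synthesis panel in each clone.

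Other genes of the pathway, from lists that hold no member, were counted beside the members. Over all tested genes, 11.3%, 15.1% and 14.7% rose in sgCtl, sgXIST7 and sgXIST9, and 8.49%, 12.2% and 8.58% fell. The counts of each list stand beside these shares and are no test of the list. Of 17 genes for eIF2 kinases, their regulators and eIF2 or eIF2B subunits, hypoxia raised 1 in sgCtl, 1 in sgXIST7 and, in the edgeR test, 0 in sgXIST9, where 2 were higher at an unadjusted p under 0.05 and DESeq2 called 0. EIF2AK3 (PERK), the kinase of endoplasmic reticulum stress, rose in sgCtl (1.22 ± 0.13, adjusted p = 8.2e-07) and sgXIST7 (1.01 ± 0.13, adjusted p = 3.2e-06) and was at 0.59 ± 0.13, adjusted p = 0.00084 in sgXIST9. Of this list 3 fell in sgCtl, 3 in sgXIST7 and 2 in sgXIST9. By DESeq2 those lower were EIF2B3 and IMPACT in all 3 clones, and EIF2AK2 in sgCtl and sgXIST7. The median log2 fold changes of the 17 genes were -0.19, -0.41 and -0.29 in the 3 clones, beside 0.0171, 0.00958 and 0.0881 over all genes. Of 12 cytosolic tRNA synthetases, which are known ATF4 targets, AARS1 rose in sgCtl (1.08 ± 0.26) and AARS1 and TARS1 in sgXIST7 (1.13 ± 0.26 and 1.17 ± 0.18), and edgeR called 0 in sgXIST9. There 4 synthetases were higher at an unadjusted p under 0.05, and DESeq2 called 1 higher. Of 22 tested further ATF4-responsive genes, 7 rose and 1 fell in sgCtl, 11 rose in sgXIST7 and 10 rose in sgXIST9. CREBRF, a regulator of CREB3-family signalling, rose in all 3 clones (2.29 ± 0.23, 3.15 ± 0.23 and 3.30 ± 0.24), as did the autophagy gene MAP1LC3B (2.08 ± 0.25, 2.53 ± 0.26 and 1.87 ± 0.25). Beside these, 10, 11 and 11 of 12 HIF-responsive genes rose in the 3 clones, so the HIF list rose in the same libraries. Among 15 endoplasmic reticulum chaperones and unfolded protein response genes, 1 rose and 1 fell in sgCtl, 1 rose and 3 fell in sgXIST7, and 2 rose and 1 fell in sgXIST9. Their part in the members' values was not tested.

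The second comparison set each XIST guide against sgCtl within normoxia, and the same sgCtl libraries served both. In sgXIST7, 2 members were lower, against 3.09% of all genes, and edgeR called 0 higher, against 4.67%. In sgXIST9, 3 were lower, against 3.77% of all genes, and edgeR called 0 higher, against 3.93%. At an unadjusted p under 0.05, 4 and 1 members were higher, and DESeq2 called 0 higher in either. The members' medians were 0.06 and -0.12, beside -0.00591 and -0.0225 over all genes. CEBPB was lower in both guides: 5.84, 5.16 and 5.27 CPM in sgXIST7 and 5.22, 6.0 and 5.55 CPM in sgXIST9 against 26, 33.9 and 35.1 CPM in sgCtl, with no overlap (-2.54 ± 0.19, adjusted p = 4e-08, and -2.50 ± 0.19, adjusted p = 3.9e-08). GDF15 was lower in both (-3.56 ± 0.86, adjusted p = 0.0059, and -4.34 ± 0.95, adjusted p = 0.0029), on counts of 36, 39 and 57 in sgCtl against 1, 9 and 5 in sgXIST7 and 4, 2 and 2 in sgXIST9. NUPR1 was lower in sgXIST9 (-2.60 ± 0.55, adjusted p = 0.0021) and was not called in sgXIST7 (-1.33 ± 0.47, adjusted p = 0.052). With the replicate number as a block, fitted over all 6 groups, NUPR1 was called in sgXIST7 too (-1.33 ± 0.34, adjusted p = 0.009), 3 members in all, against 3.39% of all genes in that fit. The ATF4 transcript was at 207 ± 28, 174 ± 17.1 and 153 ± 3.84 CPM (mean ± SD, n = 3) in sgCtl, sgXIST7 and sgXIST9, and its log2 fold changes, -0.25 ± 0.24, adjusted p = 0.51, and -0.43 ± 0.24, adjusted p = 0.23, were not called.

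Single libraries decided some of these calls. GDF15 in sgXIST7 was not called without sgCtl normoxia replicate 1, 2 or 3 (adjusted p from 0.012 to 0.019) or without sgXIST7 normoxia replicate 1 or 3 (-3.04 with an adjusted p of 0.034, and -3.50 with an adjusted p of 0.029). In sgXIST9 GDF15 was not called without any 1 of the sgXIST9 normoxia libraries (adjusted p from 0.014 to 0.017), and NUPR1 was not called without sgCtl replicate 1 (-2.24 with an adjusted p of 0.015), sgXIST9 replicate 1 (-2.68 with an adjusted p of 0.011) or sgXIST9 replicate 2 (-2.31 with an adjusted p of 0.015). CEBPB was called in every such fit. Of the other pathway lists in normoxia, NIBAN1, a stress-induced protein, was higher in both guides (2.90 ± 0.28 and 2.77 ± 0.28). Of the eIF2 list and the tRNA synthetases, edgeR and DESeq2 called 0 in normoxia in either guide. At an unadjusted p under 0.05, 1 eIF2-list gene was higher and 2 lower in sgXIST7, 3 were higher in sgXIST9, and 0 synthetases passed.

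**Figure D4:**
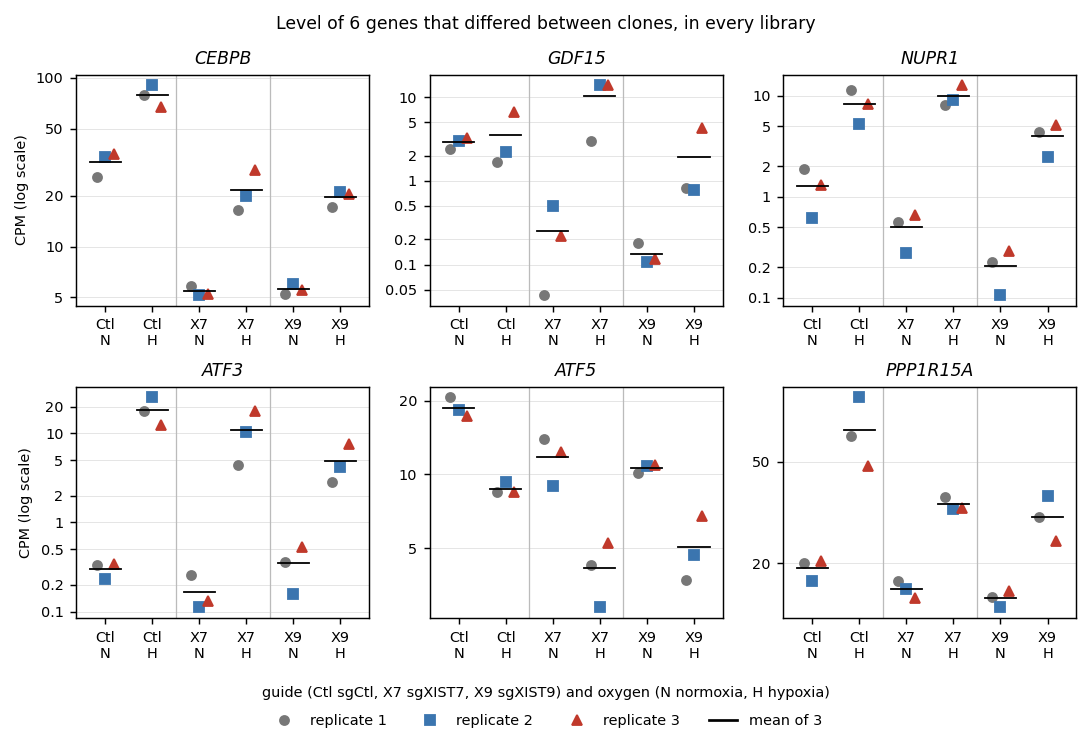
Levels (CPM, log axis) in each of the 18 libraries for the 6 members called between a guide and sgCtl: CEBPB, GDF15, NUPR1, ATF3, ATF5 and PPP1R15A. Circles, squares and triangles are replicates 1, 2 and 3 and the bar is the mean of 3. CEBPB in normoxia sits at 5.16 to 6.0 CPM in the 6 libraries of the XIST guides and at 26 to 35.1 CPM in the 3 of sgCtl.

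Within hypoxia, 2 members were lower in sgXIST7 than in sgCtl, against 6.19% of all genes, and 3 were lower in sgXIST9, against 3.39%. By edgeR 0 were higher in either, where 7.83% and 6.14% of all genes were. At an unadjusted p under 0.05, 8 members were higher in sgXIST7 and 0 in sgXIST9, and DESeq2 called 0 in both. For the unadjusted p the share of all genes was not counted. CEBPB was lower in both (-1.88 ± 0.18, adjusted p = 4.6e-07, and -2.01 ± 0.18, adjusted p = 2.3e-07), and its hypoxia libraries, at 16.6, 19.8 and 28.4 CPM and 17.3, 21.1 and 20.4 CPM, did not reach the lowest sgCtl hypoxia library of 67.5 CPM. CEBPB-AS1, on the opposite strand, was higher in sgXIST7 (1.74 ± 0.39). ATF5 was lower in sgXIST7, at 4.25, 2.85 and 5.27 CPM against 8.50, 9.28 and 8.51 CPM (-1.11 ± 0.24, adjusted p = 0.0013), and was at -0.81 ± 0.23, adjusted p = 0.014 in sgXIST9. ATF3 was lower in sgXIST9, at 2.83, 4.18 and 7.64 CPM against 17.7, 25.3 and 12.4 CPM in sgCtl (-1.94 ± 0.43, adjusted p = 0.0026). PPP1R15A was lower in sgXIST9, at 30.4, 36.6 and 24.5 CPM against 63.3, 89.3 and 47.9 CPM (-1.13 ± 0.18, adjusted p = 0.00016), and at -0.98 ± 0.18, adjusted p = 0.00046 in sgXIST7. For ATF3 and PPP1R15A in sgXIST9, and for ATF5 in sgXIST7, the groups did not overlap. Over the 31 members the median was 0.19 in sgXIST7 and -0.45 in sgXIST9, where 26 of 31 values were negative, beside -0.0195 and -0.0130 over all genes. The share of all genes with a negative value was not counted. The ATF4 values were 0.19 ± 0.24, adjusted p = 0.54, and -0.61 ± 0.24, adjusted p = 0.063.

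Same-numbered hypoxia libraries of sgXIST9 and sgCtl correlated over 0.1 in every pair, but not every library correlated best with its own number. With the replicate number as a block, fitted over all 6 groups, 5 members were lower in sgXIST9, against 3.76% of all genes in that fit. NUPR1 (-1.08 ± 0.25, adjusted p = 0.0036) and CHAC1 (-1.23 ± 0.30, adjusted p = 0.0059) joined the 3. Leaving out the hypoxia libraries numbered 3 gave 6 lower in sgXIST9, with ATF5 (-1.09 ± 0.22, adjusted p = 0.00092), CHAC1 (-1.62 ± 0.20, adjusted p = 8.4e-06) and SLC7A5 (-1.31 ± 0.13, adjusted p = 6.3e-07) added, where 4.31% of all genes were lower. In sgXIST7 it gave 4 lower, with ATF3 (-1.55 ± 0.34, adjusted p = 0.0013) and PPP1R15A (-1.14 ± 0.15, adjusted p = 1.5e-05) added, and 1 higher, GDF15 (2.12 ± 0.57, adjusted p = 0.0065), where 8.15% of all genes were lower and 9.72% higher. Among single libraries, the ATF5 call in sgXIST7 was lost without sgXIST7 hypoxia replicate 2 (-0.90 with an adjusted p of 0.01) and the PPP1R15A call in sgXIST9 without sgCtl hypoxia replicate 2 (-0.87 with an adjusted p of 0.00086). The ATF3 call was lost without sgCtl hypoxia replicate 2 (-1.64 with an adjusted p of 0.017), sgXIST9 hypoxia replicate 1 (-1.66 with an adjusted p of 0.018) or sgXIST9 hypoxia replicate 2 (-1.85 with an adjusted p of 0.012). Without sgXIST9 hypoxia replicate 3 alone, 8 members were lower in sgXIST9, with ATF5, CHAC1, DDIT4, PSAT1 and SLC7A5 beside the 3, and 2.79% of all genes were. CEBPB was called in each of these fits. The epithelial keratin KRT8 was higher in both XIST guides in both oxygen conditions (1.92 and 1.89 in normoxia, 2.56 and 2.14 in hypoxia, log2), while the summed 10 lineage and epithelial markers were at 353 to 388, 345 to 407 and 436 to 451 CPM in normoxia and 297 to 348, 459 to 517 and 411 to 433 CPM in hypoxia (sgCtl, sgXIST7 and sgXIST9). The summed 5 fibroblast markers were at 921 to 969, 983 to 1062 and 582 to 631 CPM in normoxia and 736 to 999, 735 to 981 and 359.7 to 637 CPM in hypoxia, most of it COL3A1. Of the 5, COL1A1 was higher in both guides in both oxygen conditions, on counts in hypoxia of 43, 55 and 19 in sgXIST7 and 110, 156 and 56 in sgXIST9 against 1, 5 and 2 in sgCtl. DCN was lower in both guides in hypoxia, on counts of 1, 0 and 1 and 1, 0 and 4 against 11, 27 and 30. The part of either list in the members' differences was not tested.

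The XIST guides were also set against each other. In normoxia 2 members were higher in sgXIST7, against 2.09% of all genes, and 0 were lower by edgeR, by DESeq2 or at an unadjusted p under 0.05, against 1.31%. DDIT4 was at 40.6, 80.4 and 48.5 CPM against 19.9, 20.1 and 22 CPM (1.45 ± 0.26, adjusted p = 0.0011), and VLDLR at 4.02, 13.7 and 4.79 CPM against 1.25, 0.956 and 1.11 CPM (2.72 ± 0.49, adjusted p = 0.0013). The groups did not overlap, and for both genes sgXIST7 replicate 2 was the highest. In that library the HIF-responsive genes had a median of 0.59 on the log2 scale, relative to the sgCtl normoxia mean. The medians of sgXIST7 normoxia replicates 1 and 3 were 0.16 and 0.089. DDIT4 and VLDLR stayed called whichever 1 library was left out, with lowest values of 1.11 and 1.98. The part of the HIF response in these differences was not tested. In hypoxia 1 member was higher in sgXIST7, against 2.06% of all genes, and 0 were lower by edgeR, by DESeq2 or at an unadjusted p under 0.05, against 2.4%. SLC7A1 was at 128, 169 and 214 CPM against 60.6, 59.8 and 115 CPM (1.12 ± 0.24, adjusted p = 0.0045). Its call was lost without sgXIST7 hypoxia replicate 2 (1.12) or 3 (0.93) and without sgXIST9 hypoxia replicate 1 (0.96) or 2 (0.96). In hypoxia 29 of 31 members had a positive value, with a median of 0.65 against -0.0275 over all genes, and 17 were higher at an unadjusted p under 0.05. The shares of all genes with a positive value or at that unadjusted p were not counted. The ATF4 value was 0.18 ± 0.24, adjusted p = 0.73, in normoxia and 0.80 ± 0.24, adjusted p = 0.028, in hypoxia, not called in either. Without sgXIST9 hypoxia replicate 3 the latter was 1.18 with an adjusted p of 0.00089, and called. DESeq2 called 6 members higher in hypoxia (NUPR1, VLDLR, GDF15, STC2, TRIB3 and SLC7A1), against 2.7% of all genes, and edgeR 5 without the hypoxia libraries numbered 3, against 2.99%. Single hypoxia libraries decided this count. It was 10 without sgXIST9 hypoxia replicate 3 (3.2% of all genes) and 7 without sgXIST7 hypoxia replicate 1 (2.92%). It was 0 without sgXIST7 replicate 3 (1.49% of all genes), sgXIST9 replicate 1 or sgXIST9 replicate 2 (1.41% in each).

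Whether the response to hypoxia differed between an XIST guide and sgCtl was tested as the difference of the 2 responses. For sgXIST7, 1 member passed, GDF15, with a larger rise than in sgCtl (5.14 ± 1.09, adjusted p = 0.0094), against 0.904% of all genes higher and 0.616% lower. By edgeR and DESeq2 0 members were lower, and 1 was lower at an unadjusted p under 0.05. For sgXIST9 edgeR called 0 members in either direction, where 0.663% of all genes were higher and 0.348% lower. At an unadjusted p under 0.05, 4 members were higher and 4 lower, and DESeq2 called 1 lower, SLC7A5. By edgeR the SLC7A5 difference was -1.32 ± 0.36, adjusted p = 0.041, for sgXIST9 and -0.59 ± 0.36, adjusted p = 0.3, for sgXIST7. Without the hypoxia libraries numbered 3, SLC7A5 was called lower in both (-1.72 ± 0.16, adjusted p = 7.2e-06, and -1.19 ± 0.16, adjusted p = 7.9e-05), and CEBPG (-1.0 ± 0.23, adjusted p = 0.0058) and TRIB3 (-1.05 ± 0.23, adjusted p = 0.0038) in sgXIST9. ATF4 gave 0.44 ± 0.33, adjusted p = 0.42, in sgXIST7 and -0.17 ± 0.33, adjusted p = 0.81, in sgXIST9, neither called. The median member differed by 0.07 and -0.17. The GDF15 difference was lost without any 1 of 10 of the 12 libraries it rests on, with values of 4.62 to 5.99 and adjusted p from 0.013 to 0.031. The exceptions were sgCtl hypoxia replicate 3 and sgXIST7 hypoxia replicate 1.

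Read per kilobase of exon, which makes levels of different genes more comparable, the ranking of the members shifted in hypoxia. The values of ASNS, CEBPB and MTHFD2 are less certain, since part of their exon bases overlaps other genes. In sgCtl normoxia SLC38A2 was first and ATF4 was rank 3, at 102 CPM per kb, and ATF3 was last of the 31, at 0.126 CPM per kb. In sgCtl hypoxia DDIT4 was at 207 CPM per kb, rank 2, against 22.7 CPM per kb, rank 11, in normoxia. It reached 191 CPM per kb (rank 3) in sgXIST7 hypoxia and 108 CPM per kb (rank 3) in sgXIST9 hypoxia. The lengths of SESN2 and PCK2 are those of the main chromosome, since the deposited length counts an alternate contig as well.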

How the data were processed

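Reads were trimmed (Trimmomatic) and mapped to hg38 (HISAT2) by the authors, who deposited raw counts per gene from featureCounts for 18 libraries of TruSeq Stranded Total RNA. The strand setting and annotation release are not given in the sources used here. Of the table's lines, 2 were broken and left out, 28277 genes remained, and 0 columns were unused. The members and lists were chosen with earlier results of these data known. Counts were scaled by TMM and fitted in edgeR 4.0.16 (R 4.3.3) by the robust quasi-likelihood method, 1 fit of 6 groups, after filterByExpr (minimum count 10, minimum total 15), leaving 14938 genes. P-values were Benjamini-Hochberg adjusted over all of these. A gene was called, after the study's thresholds, at an adjusted p under 0.01 and a log2 fold change beyond 1. Called members were named with values, and ATF4 throughout. Counts at an unadjusted p under 0.05 were made for members and lists only, so no share of all genes stands beside them. The step was tested on simulated counts. With 3 libraries a group an exact permutation test cannot go below p = 0.1, so none is printed. Alternatives were DESeq2 1.42.0, 2 other scalings, other filters, thresholds and groups, a replicate block and left-out libraries.

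Replicate numbers come from the labels. Deviations from group means of same-numbered libraries correlated over 0.1 in every pair only for sgXIST7 against sgCtl in normoxia (0.148, 0.379 and 0.195) and sgXIST9 against sgCtl in hypoxia (0.197, 0.52 and 0.566). Both were taken as paired, but their main values come from the fit without the replicate block. The block was fitted as an alternative, and its calls are given beside the main ones. Every library correlated best with its own number in the normoxia comparison but not in the hypoxia comparison. The block was fitted over all 18 libraries, so it is no pairing of 2 groups alone.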

Additional observations from a re-analysis of the deposited data

Results flagged for a closer look

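The GDF15 difference between hypoxia and normoxia was larger in sgXIST7, where it was called (5.37 ± 0.85), than in sgCtl, where it was not (0.23 ± 0.67, adjusted p = 0.8), and the difference of these responses passed the interaction test (5.14 ± 1.09, adjusted p = 0.0094, 3 libraries a group). Its levels were at or below 0.500 CPM in every sgXIST7 normoxia library, on counts of 1, 9 and 5. This difference was no longer called in 10 of the fits that left out 1 library. With no filter on low counts, or with only the groups compared, 0 members were called for it.

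In 3 transporters every library of a group moved one way and every library of the other group the opposite way, and the interaction term, which was tested for each, missed the limit of 0.01. Only members were searched for this pattern, so its share over all genes is not known. SLC38A2 was lower in hypoxia in sgCtl and higher in sgXIST7, with a difference of 0.68 ± 0.15, adjusted p = 0.011. SLC3A2 was higher in hypoxia in sgCtl and lower in sgXIST9, and was also higher in sgXIST9 than in sgCtl in normoxia and lower in hypoxia (-0.81 ± 0.23, adjusted p = 0.054, for both views). SLC7A5 was higher in sgXIST9 than in sgCtl in normoxia and lower in hypoxia (-1.32 ± 0.36, adjusted p = 0.041). Without the 3 hypoxia libraries numbered 3, a setting chosen after seeing the data, the adjusted p was under 0.01 for all 3: SLC38A2 gave 0.76 ± 0.14, adjusted p = 8e-04, SLC3A2 gave -0.96 ± 0.16, adjusted p = 0.00067, and SLC7A5 gave -1.72 ± 0.16, adjusted p = 7.2e-06. Of these SLC7A5 also passed the fold limit.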

How the results depend on the processing

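Counts in this section are members called of 31. Shares of all genes are given in the results above for some settings only. Where none is given, a count does not show whether members moved apart from all genes. DESeq2 gave 6 higher for sgXIST7 against sgXIST9 in hypoxia and 1 lower for the response of sgXIST9 minus that of sgCtl, and median-of-ratios scaling gave 2 higher for the former. Upper-quartile scaling and a mean of at least 1 CPM moved no count by over 1.5 times. With no filter on low counts, 1 was lower in sgXIST7 in normoxia, 1 higher for sgXIST7 against sgXIST9 in normoxia, and 0 differed in response in sgXIST7. Fits of only the groups compared gave 1 lower in sgXIST7 and 1 in sgXIST9 in hypoxia, 1 and 0 higher for sgXIST7 against sgXIST9 in normoxia and hypoxia, and 0 for the sgXIST7 response. At an adjusted p under 0.05, 1 was higher in sgXIST7 in hypoxia, 5 for sgXIST7 against sgXIST9 in hypoxia, and 1 lower in the sgXIST9 response. At any fold, 2 fell in sgCtl hypoxia, 1 was higher in sgXIST7 in each oxygen condition, 5 were lower in sgXIST9 in hypoxia, and 2 were higher for sgXIST7 against sgXIST9 in hypoxia. Without the 6 libraries numbered 3, the sgXIST9 hypoxia median was 0.49, 1 was lower in each guide in normoxia, 4 in sgXIST7 and 6 in sgXIST9 in hypoxia, 1 and 5 were higher for sgXIST7 against sgXIST9 in normoxia and hypoxia, and 1 was lower in each response. Without only the 3 hypoxia libraries numbered 3, 7 rose in sgXIST9 (median 0.42), 1 was higher and 4 lower in sgXIST7 in hypoxia, 6 were lower in sgXIST9, 5 were higher for sgXIST7 against sgXIST9, and 1 and 3 were lower in the sgXIST7 and sgXIST9 responses. In these last 2 settings GDF15 in sgCtl hypoxia turned to -0.47 and -0.57, and SLC7A5 in sgXIST9 hypoxia to -0.13 and -0.16. Except where a setting's construction shows it (a looser limit, fewer libraries), the cause was not tested.

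With the replicate block, 5 were lower in sgXIST9 in hypoxia, as given above. Elsewhere the libraries share only a number: 14 rose in sgCtl and 12 in sgXIST9 (ASNS added to each), 6 were higher for sgXIST7 against sgXIST9 in hypoxia, and the other counts did not change but for NUPR1 in sgXIST7 normoxia. In sgCtl hypoxia against normoxia every library correlated best with its own number.

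Leaving out 1 library at a time, the members that rose in hypoxia numbered 11 to 13 in sgCtl (median 0.71 to 0.89), 12 to 19 in sgXIST7 (0.82 to 1.22) and 7 to 13 in sgXIST9 (0.42 to 0.99, with 0 to 1 lower). Those lower numbered 1 to 2 in sgXIST7 and 1 to 3 in sgXIST9 in normoxia, and in hypoxia 1 to 3 in sgXIST7 (0 to 1 higher) and 2 to 8 in sgXIST9. For sgXIST7 against sgXIST9, 0 to 10 were higher in hypoxia, and the normoxia median was 0.031 to 0.18. The response in sgXIST7 had 0 to 1 higher (median -0.28 to 0.36), and the sgXIST9 median was -0.53 to -0.0018. GDF15 in sgCtl hypoxia ran from -0.57 to 0.58 and SLC7A5 in sgXIST9 hypoxia from -0.16 to 0.26. ATF4 ran from -0.059 to 0.40 for sgXIST7 against sgCtl in hypoxia, and from -0.56 to 0.043 for the sgXIST9 response. Over 95 results of single members, the other settings kept direction and call in 969 values, lost the call in 36, gained it in 23 and turned 4, and single left-out libraries did so in 565, 59, 8 and 4. The looser limits (an adjusted p under 0.05, or any fold) reused the main fit. They could neither turn a direction nor lose a call, so their values add to those kept by construction.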

Other observations

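Among further ATF4-responsive genes that are no member, NIBAN1, a stress-induced protein, was higher in both XIST guides in hypoxia as well (2.81 ± 0.28, adjusted p = 9.2e-07, and 2.51 ± 0.28, adjusted p = 3.3e-06). JDP2, a repressor of the AP-1 and ATF families, rose in hypoxia in all 3 clones (2.06 ± 0.16, 1.26 ± 0.15 and 2.72 ± 0.18) and was lower in sgXIST9 than in sgCtl in normoxia (-2.09 ± 0.18, adjusted p = 1.7e-07) and hypoxia (-1.43 ± 0.15, adjusted p = 2.5e-06). CBS, an enzyme of transsulfuration, fell in sgCtl hypoxia (-1.78 ± 0.43, adjusted p = 0.0026), with values of -0.88 ± 0.40 in sgXIST7 and -0.55 ± 0.41 in sgXIST9. Of 8 NRF2-responsive genes, 3 rose and 1 fell in sgCtl, and 2 rose and 1 fell in each XIST guide. Of all tested genes, 11.3%, 15.1% and 14.7% rose in sgCtl, sgXIST7 and sgXIST9, and 8.49%, 12.2% and 8.58% fell.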
